A study of Homo sapiens with 36 samples.

Results

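RNA polymerase II (pol II) was spread over long stretches of chromatin at 479 places in A549 cells. These long pol II domains were the A549 pol II peaks on chromosomes 1 to 19 whose width, from the called start to the called end, was at least 4000 bp. They were 479 of 45934 A549 pol II peaks on those chromosomes. Width in the A549 pol II list was therefore what chose them, and widths, fold enrichments and significance from that list are given as a description with no test. In B2B cells, 57 of 22847 pol II peaks reached 4000 bp.

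The series compared chromatin of A549, a human lung adenocarcinoma line, with that of BEAS-2B (B2B), an immortalised line from bronchial epithelium that is not cancerous. Both lines were untreated and were profiled by chromatin immunoprecipitation sequencing (ChIP-seq) for pol II (antibody 8WG16), the Mediator subunit Med1, the histone marks H3K4me3 and H3K27ac and the AP-1 proteins JunB, Jun and JunD, with CTCF and Rad21 used here from B2B. The labels gave 36 samples in 18 groups of 2 replicates, 4 of the samples being input. Each of the 16 peak lists was called on 1 pool of 2 replicates, so no spread between replicates could be measured. With 1 line of each kind, effects of cancer and of the line cannot be told apart. On chromosomes 1 to 19 the A549 and B2B lists held 25570 and 7895 JunB peaks, 32518 and 41555 Jun peaks, and 8738 and 7778 JunD peaks. Parts of some A549 lists past chromosome 12 were not analysed here, so H3K27ac and Med1 are given for chromosomes 1 to 12. The lines were told apart by known genes. CDKN2A, a tumour suppressor gene that A549 has lost, had no peak in any A549 list, while B2B pol II covered 14.4% of it. The airway basal keratin gene KRT17 had no A549 pol II, H3K4me3 or Jun-family peak and was 75.2% covered by pol II in B2B, and the basal marker KRT5 had no pol II in either line. Of 8 basal airway identity genes, B2B pol II lay within 1 kb of the start in 1 and was not called there in 7. Most basal markers thus had no pol II at their start in B2B. The alveolar surfactant genes SFTPA1, SFTPB and SFTPC had no pol II peak in A549.

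Pol II gathers at the start of a gene, where it pauses after initiation, and then moves through the gene body into elongation. At the end of the gene it runs on past the site where the transcript is cut before it leaves the template, so a heavily transcribed gene can carry pol II along its length and beyond its end. H3K4me3 marks active starts, H3K27ac and Mediator mark active promoters and enhancers, and AP-1 is a dimer of Jun and Fos proteins that responds to growth factors and stress and binds the sequence TGACTCA or TGAGTCA, each the other's reverse complement.

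To show the DNA under the Jun proteins inside these domains, the following 101 bp windows are centred on A549 Jun summits that held the AP-1 motif, in introns of genes that carried the widest domains or the most Jun-family peaks. They are printed from the plus strand of hg38, with the motif in capitals.
MAFK, chr7:1537307-1537407: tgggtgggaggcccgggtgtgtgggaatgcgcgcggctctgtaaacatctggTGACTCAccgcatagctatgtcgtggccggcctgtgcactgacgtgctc
MYADM, chr19:53865237-53865337: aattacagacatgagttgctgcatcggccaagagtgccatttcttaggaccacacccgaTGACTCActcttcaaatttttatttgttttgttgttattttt
DUSP5, chr10:110501401-110501501: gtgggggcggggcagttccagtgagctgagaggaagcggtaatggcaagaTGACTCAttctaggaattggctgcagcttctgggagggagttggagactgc
KRT7, chr12:52247486-52247586: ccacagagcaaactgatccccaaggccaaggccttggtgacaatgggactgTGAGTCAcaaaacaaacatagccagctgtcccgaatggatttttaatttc
TXNRD1, chr12:104293845-104293945: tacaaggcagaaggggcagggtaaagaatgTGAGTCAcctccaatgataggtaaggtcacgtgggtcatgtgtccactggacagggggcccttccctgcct
SLC7A5, chr16:87860709-87860809: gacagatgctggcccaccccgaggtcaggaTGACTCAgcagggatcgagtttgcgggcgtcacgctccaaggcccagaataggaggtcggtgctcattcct

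All 6 windows also held an A549 JunB peak, and those of MAFK, MYADM, DUSP5 and KRT7 held a JunD peak as well. Their fold enrichment for Jun, the pileup of reads over the local background, ran from 48.9 at MAFK and 44.9 at MYADM to 9.54 at TXNRD1 and 6.42 at SLC7A5. In B2B, the MAFK, DUSP5 and SLC7A5 windows were overlapped by Jun-family peaks and by pol II, and the MYADM, KRT7 and TXNRD1 windows by neither. The SLC7A5 window was the only one of the 6 in which the motif ran on as TGACTCAGC, a form that NRF2 with small Maf proteins can also bind.

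The domains were 4001 to 30318 bp wide with a median of 6101 bp, against a median of 419 bp for all A549 pol II peaks. Together they spanned 3.55 Mb, which was 10.7% of the bases in A549 pol II peaks. At the threshold, the narrowest members lay over LINC00324 (4001 bp), the small nucleolar RNA host gene SNHG1 (4009 bp) and the histone demethylase gene KDM6B (4012 bp). The widest peaks left out were 3996 bp wide over the histone genes H2AC18 and H3C14, 3995 bp over SESN2, a stress-induced regulator of mTOR signalling, and 3993 bp over SNHG15.

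The widest domain, at chr12:52235304-52265621, was 30.3 kb long, covered 86.9% of KRT7, a keratin of simple epithelia, and ran 16.7 kb past its end. A separate A549 pol II peak lay over the KRT7 start, where B2B had no pol II peak, and 2.69% of the domain was covered by pol II in B2B.

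SLC7A5, which encodes the light chain of a transporter of large neutral amino acids, carried more domain bases than any other gene, 54.2 kb in 3 domains. The second widest domain, at chr16:87813842-87843350, was 29.5 kb long, held the last part of SLC7A5 and ran 16.2 kb past its end. No B2B pol II peak and no Jun-family peak of either line lay in it. The middle domain of 19.7 kb was 6.62% covered by pol II in B2B, and the one of 4.96 kb over the start was 68.9% covered. Along SLC7A5, pol II of B2B was thus called mainly at the start.

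TXNRD1 encodes thioredoxin reductase, a target of the oxidative stress factor NRF2. It carried 47.8 kb in 3 domains of 24.8, 12.3 and 10.6 kb, which were 12.03%, 0% and 0% covered by pol II in B2B. The first of these, at chr12:104285740-104310588, lay 71.3 kb downstream of the start of the annotated canonical transcript at its summit, and A549 H3K4me3 covered 90.5% of it. It also held 19 Jun-family peaks in A549 and 1 in B2B. TNS4, a tensin of focal adhesions, had a domain of 24.9 kb that ran 19.5 kb past its end and had no B2B pol II.

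By the sum of bases, ANXA2, which encodes a calcium-dependent membrane-binding protein, came after SLC7A5 and TXNRD1 with 35.4 kb in 4 domains, followed by KRT7 with 30.3 kb and TNS4 with 30.2 kb. Of the other widest domains, the one of 21.2 kb covered the whole of MAFK, a small Maf protein that pairs with NRF2, and was 43.7% covered by pol II in B2B. MYADM, a membrane protein gene, had 19.5 kb and 40.5%. VCP, an ATPase that extracts proteins for degradation, had 18991 bp and 8.60%. DUSP5, a nuclear phosphatase of ERK, had 18980 bp and 66.5%, and ATF3, a stress-induced member of the basic leucine zipper family, had 18.2 kb and 91.8%. The widest domains therefore ranged from none to nearly all of their length under pol II in B2B.

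**Figure D1:**
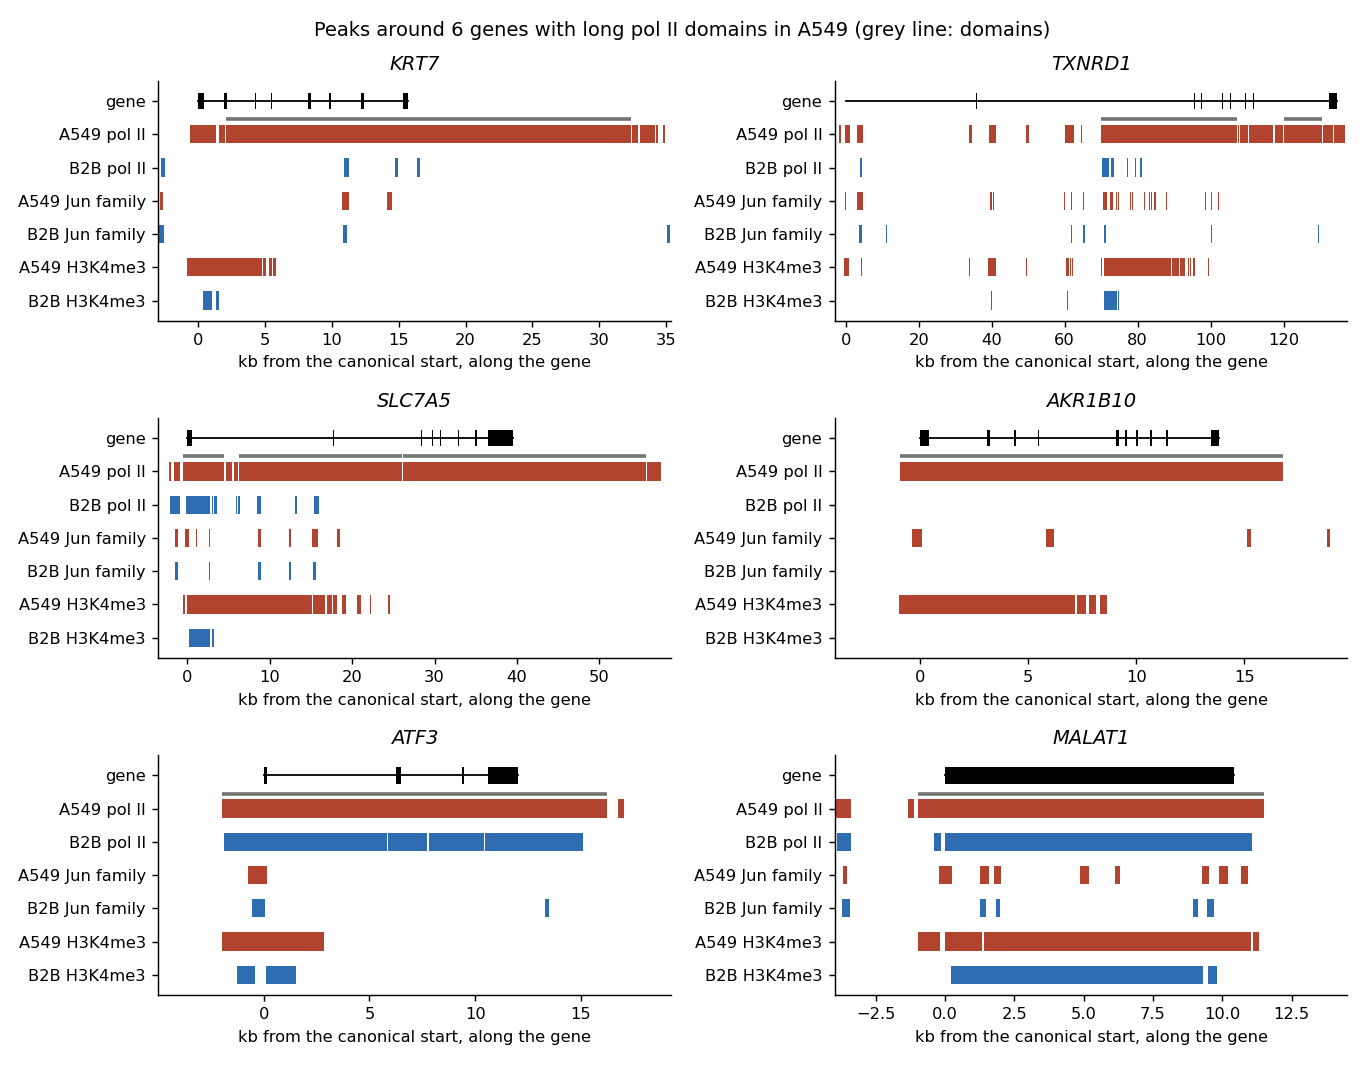
Peaks of 6 lists or list groups (rows) around 6 genes with long pol II domains, in kb from the start of the canonical transcript along the gene. Black boxes are exons, red bars A549 peaks, blue bars B2B peaks and grey lines the domains. B2B pol II is sparse over KRT7, TXNRD1 and the later part of SLC7A5, absent over AKR1B10, and runs along ATF3 and MALAT1, where the domains were 91.8% and 91.0% covered.

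The map of 6 genes shows these contrasts side by side. In ATF3 and MALAT1 the blue pol II bars run nearly as far as the red ones, whereas in KRT7 and AKR1B10 the red bars stand almost alone, and H3K4me3 of A549 reaches further into each of the 6 genes than that of B2B.

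Most of the domains lay in genes, and nearly all gene parts were represented. Each domain was given to the protein-coding or long non-coding RNA gene that it overlapped most, and 462 had such a host, of which 429 (92.9%) were protein-coding. By the canonical transcript of the host, 102 domains covered the whole gene, 132 the start without the end, 101 the end without the start, and 115 lay inside it. A further 12 overlapped only other transcripts or flanks of the host and 17 overlapped no gene. Of the bases in the domains, 17.3% were exon and 48.6% intron of the host. The genes covered whole, some of them long non-coding RNA genes, had a median canonical transcript of 3.97 kb, against 23.3 kb for all protein-coding genes. A domain can cover a whole gene only when the gene is shorter than the domain. Whole-gene domains were at most 21.2 kb wide, so short genes in this class follow from its definition. ChIP-seq does not mark strand, so overlapping genes cannot be told apart, and in 29 domains the host was under 50% covered while another protein-coding gene was at least 50% covered.

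A start of some annotated transcript lay in 369 of the 479 domains (77.0%; 95% Wilson interval 73.1 to 80.6), compared with 30.1% of all A549 pol II peaks and 77.6% of the 1807 peaks of 2000 to under 4000 bp. Of the 115 domains inside the canonical transcript, 50 covered another start of the same gene, as did 41 of the 101 over the end. Domains over the canonical start had their summit within 1 kb of it in 197 of 234 cases (84.2%). Of the 203 domains that contained the canonical end, 185 (91.1%) reached at least 1 kb past it and 32 (15.8%) at least 5 kb. Among those with the end and not the start, the summit itself lay past the end in 64 of 101 (63.4%).

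The height of the signal followed the part of the gene that was covered. Median fold enrichment was 81.4 over starts without ends and 75.6 over whole genes, against 20.4 over ends without starts and 16.9 inside genes. The 5 highest were over SNHG7, a small nucleolar RNA host gene (125), EEF1A1, the translation elongation factor that delivers aminoacyl-tRNA (122), DUSP5 (121), the ribosomal protein gene RPS20 (120) and HES1, a repressor downstream of Notch (118). The pileup at the summits was at most 332 reads and was at least 300 reads in 169 domains, so that the highest values were close together. H3K4me3 of A549 covered a median of 80.6% of domains over starts without ends and 51.9% of those over whole genes, and a median of 0% of those over ends or inside genes.

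Genes of several known groups carried long domains. The lists were compiled with earlier results of these data known, and a gene counted when it was the host of a domain, which 2.01% of the 17898 protein-coding genes were. NRF2 targets, which detoxify and restore glutathione and NADPH, were hosts in 13 of 22 cases, and immediate early genes, which respond to growth signals within minutes, in 13 of 26. Cytosolic ribosomal proteins were hosts in 33 of 79, heat shock chaperones in 6 of 17, glycolytic enzymes in 5 of 13, actin cytoskeleton genes in 6 of 18, simple epithelial keratins in 3 of 4 and long non-coding RNA genes kept in the nucleus or hosting small nucleolar RNAs in 4 of 7. Replication-dependent histone genes, whose transcripts are short, were hosts in 2 of 69. None of the 8 basal airway identity genes and none of the 398 olfactory receptor genes, which the lung epithelium does not use, was a host. When a gene counted with at least 1000 bp of its canonical transcript in a domain, the background was 2.56% and the counts rose to 17 of 26 for immediate early genes and 7 of 7 for AP-1 subunits, which had 4 of 7 as hosts.

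What the A549 list did not decide is the state of these genes in B2B, and there the lists had different medians. Over all 479 domains, pol II of B2B covered a median of 21.9% of the length. For the 23 domains over NRF2 targets the median was 0% and the range 0% to 32.9%, and 15 of them had no B2B pol II peak. These 23 domains came from 13 host genes with up to 4 domains each, so they are not independent, and by gene 5 of the 13 (ABCC2, ABCC3, AKR1B10, AKR1C2 and GCLM) had no B2B pol II in any domain. For the 18 domains over immediate early genes the median was 54.8% and the range 11.96% to 94.9%, and each had a B2B pol II peak. The lists are small, and the difference between them is described here and not tested.

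AKR1B10, an aldo-keto reductase that reduces lipid-derived aldehydes, had no pol II peak of B2B. Its 17.7 kb domain at chr7:134526631-134544341 covered the whole gene with a fold enrichment of 86.3, and A549 H3K4me3 covered 52.1% of it. No pol II, H3K4me3 or Jun-family peak of B2B lay in this domain. AKR1C2, a related enzyme of steroid metabolism, had domains of 11995 and 5685 bp, also with no B2B pol II, and its neighbour AKR1C1 shared the first. Reads of these near-identical copies may be split between them, so the values are uncertain.

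Pol II of B2B lay within 1 kb of the start of 12 of the 22 NRF2 targets and was not called there in the other 10, among them ABCC2, ABCC3, AKR1B10 and AKR1C2. It lay there in 47.1% of all protein-coding genes and in 70.8% of those with A549 pol II at the start. The share for NRF2 targets was thus not below that of all protein-coding genes, but was below that of genes with A549 pol II at the start. The list is small, and the difference was not tested. NQO1, a quinone reductase, was 95.2% covered by pol II in A549 and 1.958% in B2B. PGD, an NADPH-producing enzyme of the pentose phosphate pathway, was 97.2% covered in A549 and 2.24% in B2B. The ferritin genes FTH1 and FTL were 100% covered in A549, with 8.78% and 27.9% in B2B. These 4 genes, chosen after their values were seen, each had a B2B pol II peak at the start.

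The genes of AP-1 itself were covered along most or all of their length in A549. FOS, FOSB, FOSL1, JUN, JUNB and JUND had 100% of their canonical transcript under pol II in A549 and FOSL2 91.8%. In B2B the values were 94.9% for FOS, 90.6% for JUND, 56.1% for FOSB, 51.3% for FOSL2, 45.4% for JUN, 16.0% for FOSL1 and 15.2% for JUNB. FOSB, JUNB and JUND are short genes that lay in domains given to the longer neighbours ERCC1, HOOK2 and IQCN. FOS and FOSL1 domains were 8050 and 14048 bp wide, and each AP-1 subunit gene had a Jun-family peak of A549 in its span. This was not particular to them, since such a peak lay in 90.2% of all whole-gene domains and 93.2% of those over starts without ends.

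Pol II of B2B also ran along some nuclear non-coding RNA genes. MALAT1 was 100% covered in both lines, and NEAT1, the scaffold RNA of paraspeckles, was 94.1% covered in A549 and 99.4% in B2B. SNHG1 was 98.5% covered in A549 and 55.9% in B2B, and GAS5, a small nucleolar RNA host gene, 100% and 38.5%. In this list, 2 of the 5 domains lay over NEAT1. The domain of SNHG7, which is not among the hosts of the list, was 5.30% covered by pol II in B2B. Among chaperones, HSPA5, the main chaperone of the endoplasmic reticulum, was 100% covered in both lines.

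The 3 domains over simple epithelial keratins were 2.69% to 15.6% covered by pol II in B2B with a median of 5.75%, and the 5 over glycolytic enzymes 0% to 38.9% with a median of 18.4%, near the 21.9% of all domains. KRT8 and KRT18, partner keratins of simple epithelia, were 100% covered in A549 and 3.13% and 23.6% covered in B2B, and KRT7 was 98.1% and 3.70%. The fourth keratin of the list, KRT19, had no pol II peak in either line. Of the glycolytic genes, ENO1 had 97.7% and 27.6%, GAPDH 100% and 17.4%, ALDOA 96.5% and 6.19%, PKM 33.7% and 7.28% and PFKP 29.1% and 2.93%, in A549 and B2B. RPS19, with the widest domain of the ribosomal protein genes at 16.4 kb, was 100% covered in A549 and 19.1% in B2B. Ribosomal protein genes have many processed copies elsewhere in the genome, which can take part of their reads.

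**Figure D2:**
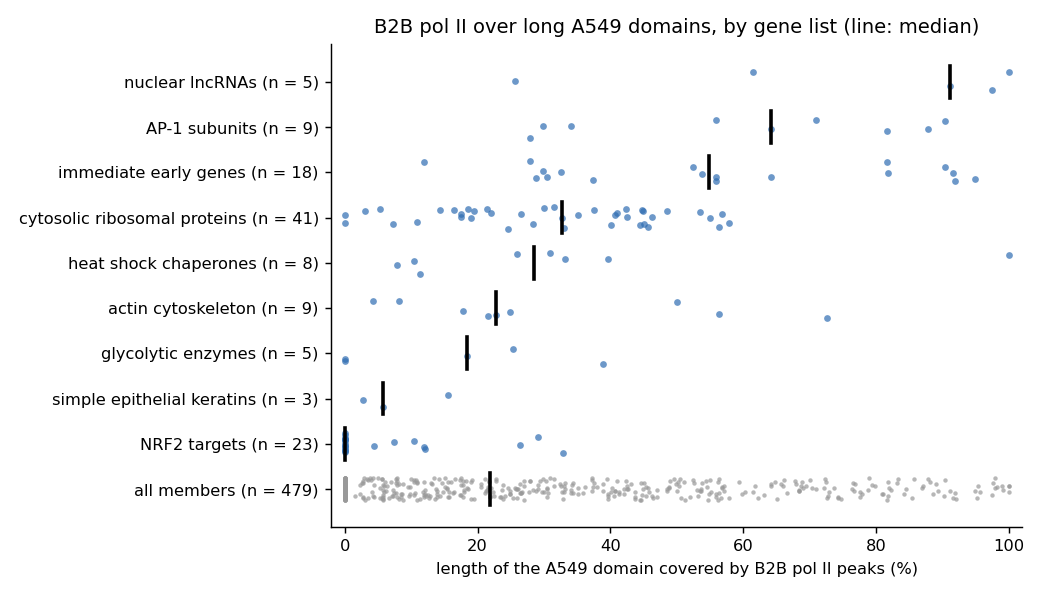
Each point is a long A549 domain with at least 1000 bp over a gene of the list (rows), and the horizontal axis is the percent of its length inside B2B pol II peaks. Black lines are medians, from 0% for NRF2 targets to 91.0% for the nuclear non-coding RNA genes, beside 21.9% for all 479 domains. AP-1 subunits and immediate early genes share members, and the replication-dependent histones, with 1 domain at 95.2%, are not drawn.

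The plot by gene list shows how wide the ranges were. The domains of ribosomal protein genes ran from 0% to 57.9% with a median of 32.6%, and those of heat shock chaperones from 7.81% to 100%, so a list had no single state in B2B.

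Pol II in B2B was asked over each whole domain. No B2B pol II peak overlapped 106 domains (22.1%; 18.6 to 26.1), 252 were under 50% covered and 121 (25.3%; 21.6 to 29.3) at least 50% covered. Some B2B pol II peak overlapped 77.9% of the domains, against 27.4% of all A549 pol II peaks, and 15.9% of all A549 pol II peaks were at least 50% covered. Longer peaks have more bases to be hit, so within 500 bp of the A549 summit was compared as well. There B2B pol II was present at 350 of 479 domains (73.1%), beside 28.9% of all A549 pol II peaks. The peaks of 2000 to under 4000 bp had 71.6%, a difference of 1.51 percentage points with a 95% Newcombe interval of -3.10 to 5.85. By coverage of at least 50% the difference was -8.66 points (-13.0 to -4.05). This cut asks for more B2B bases in a longer peak, and B2B pol II peaks had a median width of 345 bp. The difference by coverage therefore cannot be told apart from the difference in width. Among peaks over a transcript start, 79.7% of domains had B2B pol II at the summit, beside 60.3% of all A549 pol II peaks over a start.

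The state in B2B varied with the part of the gene. Without any B2B pol II peak were 6 of 102 domains over whole genes (5.88%; 2.72 to 12.2) and 11 of 132 over starts without ends (8.33%; 4.72 to 14.3). The same was true of 37 of 101 over ends without starts (36.6%; 27.9 to 46.4) and 46 of 115 inside genes (40.0%; 31.5 to 49.1). The intervals of the classes with a start did not overlap those of the classes without.

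Where the domain covered the canonical start, B2B pol II lay within 1 kb of that start in 212 of 234 genes (90.6%; 86.2 to 93.7), and so did B2B H3K4me3, also in 212. These genes were chosen for A549 pol II at the start. Among the 11482 protein-coding genes with A549 pol II within 1 kb of the start, B2B pol II lay there in 70.8% and B2B H3K4me3 in 87.9%, and among all 17898 protein-coding genes in 47.1% and 60.1%. The H3K4me3 count was thus near that of genes with A549 pol II at the start. The stretch from 2 kb past the start to the downstream edge of the domain was then taken, which left at least 1 kb in 195 domains. It was not cut at the end of the gene. Whole-gene domains reached a median of 2.72 kb past the end, so there the stretch took in bases beyond the gene. Of the 195 domains, 118 (60.5%) had B2B pol II at the start and in this stretch, and 61 (31.3%) at the start alone. In 5 it lay in the stretch alone and in 11 at neither. The median share of the stretch covered in B2B was 15.3%, which is not a value of the gene body alone. The widest domains with B2B pol II at the start alone were over ETF1, a translation termination factor (16.9 kb), ZC3H12A, an RNase of inflammatory transcripts (14.5 kb), and PTBP1, a splicing repressor (13.4 kb). Of the ETF1 domain, 12.6 kb lay upstream of the ETF1 start and reached the end of the chaperone gene HSPA9. Only a small part of it was thus ETF1 body. Among the 11 with neither were AKR1B10, ELF3, an epithelial ETS factor (9.79 kb), GDF15, a secreted stress factor (6.97 kb), and ABCC2, an efflux pump (4.04 kb).

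Of the 106 domains with no B2B pol II peak, 103 had a host gene. At the host start, within 1 kb, B2B pol II was present in 54 of them (52.4%), B2B H3K4me3 in 66 (64.1%) and A549 H3K4me3 in 94 (91.3%). A549 H3K4me3 lay at 69.9% of the starts of all protein-coding genes and at 98.2% of those with A549 pol II. The B2B counts were near those of all protein-coding genes and below those of genes with A549 pol II at the start. For B2B pol II this was set in part by the choice of domains without it, since 6 of them covered the whole gene and 11 the start without the end. The counts are also by domain, and a gene with several domains entered more than once. The 5 widest of the 106 domains were those over the ends of SLC7A5 and TNS4, AKR1B10, the 12.7 kb domain over TMEM184A and the 12.3 kb domain of TXNRD1.

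**Figure D3:**
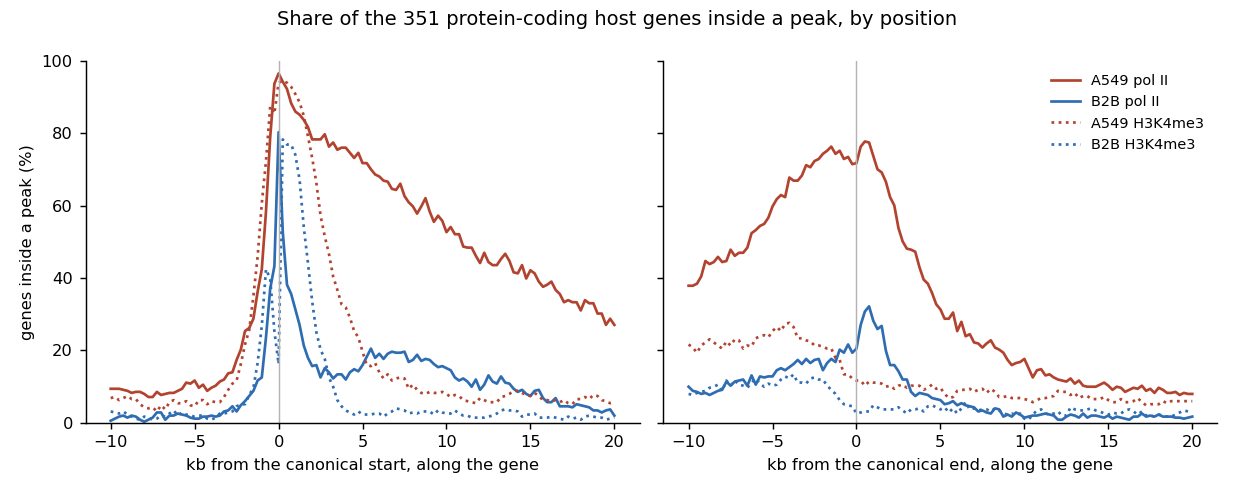
Percent of 351 protein-coding host genes inside a peak (vertical axis) by distance in kb from the canonical start (left) and end (right) along the gene. Solid lines are pol II and dotted lines H3K4me3, red for A549 and blue for B2B. At the start itself 96.6% of genes were inside A549 pol II and 80.3% inside B2B pol II, and 2 kb downstream 78.3% and 15.7%.

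The profile over host genes gives the same contrast by position. Since the genes were chosen by A549 pol II, the red pol II lines describe the choice. The B2B pol II line fell from 80.3% at the start to 15.7% at 2 kb, lay at 19.4% just before the end and rose to 32.2% at 0.75 kb past it. A549 pol II stood at 77.5% at that point and at 28.8% at 5.25 kb past the end. H3K4me3 lay over 73.2% of the genes in A549 and 33.6% in B2B at 2 kb past the start. At the start itself, B2B H3K4me3 covered 16.2% and was 76.9% at 0.5 kb, while A549 H3K4me3 was at 94.0% at both points.

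The B2B list was called against a higher local background. At the summits of domains the background solved from fold enrichment and p-value had a median of 2.69 reads, and at the 1240 B2B pol II peaks inside domains 8.67 reads, with median pileups of 223 and 42 reads. The background over all pol II peaks had medians of 2.36 reads in A549 and 9.14 in B2B. The part of this difference in the missing B2B peaks was not tested.

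The 57 long pol II peaks of B2B overlapped domains of A549 in 35 cases (61.4%), and 34 of the 479 domains (7.098%) overlapped one. The widest in B2B were over NEAT1 (14.6 kb), the HES4 region (13.8 kb), a second stretch of NEAT1 (12.2 kb) and MALAT1 (11.1 kb), each in a place with a long domain in A549. A further 3, chosen after their values were seen, had no A549 pol II at all, over RRM2, a ribonucleotide reductase subunit (10.9 kb), SLC20A2, a phosphate transporter (6.67 kb), and HLA-B, an antigen-presenting molecule (4.87 kb).

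Jun-family peaks were called in most of the domains in A549. A Jun-family peak lay somewhere in 323 of 479 domains (67.4%; 63.1 to 71.5), against 33.2% of all A549 pol II peaks. All 3 proteins had a peak in 216 domains (45.1%), JunB and Jun without JunD in 51, Jun alone in 28 and none in 156 (32.6%). Neither these combinations nor shares by gene part are given here for other A549 pol II peaks. Both therefore describe the domains, and neither shows a trait of long domains as such. The share of domains with any Jun-family peak followed the start of the gene. It was 90.2% (82.9 to 94.6) of whole-gene domains and 93.2% (87.5 to 96.4) of those over starts without ends, but 36.6% (27.9 to 46.4) over ends without starts and 43.5% (34.8 to 52.6) inside genes. Of the Jun summits in domains, 449 of 747 (60.1%) were within 1 kb of an annotated start, beside 7876 of all 32518 A549 Jun summits. Of the JunB and JunD summits in domains, 68.4% and 64.7% were. The domains themselves covered a transcript start in 369 of 479 cases, so nearness to a start is not a trait of the Jun proteins alone. Median fold enrichment of the peaks with a summit in a domain was 6.25 for JunB, 7.88 for Jun and 4.73 for JunD. Over all A549 peaks of these proteins it was higher, at 6.84, 9.36 and 5.57.

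To take the length of the domain out of the comparison, a window of 500 bp to each side of the pol II summit was used. JunB was present in 49.9% of domains and 48.2% of peaks of 2000 to under 4000 bp, a difference of 1.69 points (-3.33 to 6.71), beside 26.8% of all A549 pol II peaks. Jun was present in 54.9% and 52.7%, a difference of 2.22 points (-2.81 to 7.19), beside 28.8%. JunD was present in 43.2% and 36.2%, a difference of 6.97 points (2.06 to 11.9), beside 13.0%. The interval for JunD excluded 0 and those for JunB and Jun did not. For any of the 3 it was 60.3% and 61.7%, a difference of -1.37 points (-6.34 to 3.47), beside 34.7%. Over whole domains, JunB was found in 58.5%, Jun in 64.3% and JunD in 48.9%, beside 25.9%, 27.8% and 12.8% of all A549 pol II peaks. Among peaks over a transcript start, JunD lay at 49.9% of domain summits and 41.4% of the others, a difference of 8.45 points (2.75 to 14.1), beside 18.9% of all pol II peaks over a start. There JunB lay at 56.9% of domain summits and 53.8% of the others, a difference of 3.10 points (-2.62 to 8.70), beside 30.8%, and Jun at 63.7% and 59.3%, a difference of 4.38 points (-1.25 to 9.79), beside 35.5%, both with intervals that include 0. Over a start, a peak of any of the 3 lay at 69.9% of domain summits and 70.1% of the others. The difference was -0.145 points (-5.54 to 4.94). With a width of at least 3000 bp in place of 4000 bp, the JunD difference was 2.65 points (-1.42 to 6.74).

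The active marks went the other way. H3K4me3 of A549 lay at 60.3% of domain summits and 78.5% of summits of the shorter peaks, a difference of -18.2 points (-23.0 to -13.5), beside 48.6% of all A549 pol II peaks. On chromosomes 1 to 12, H3K27ac lay at 65.2% and 82.0%, a difference of -16.8 points (-22.6 to -11.3), beside 50.2%. Med1 lay at 63.9% and 78.9%, a difference of -15.0 points (-20.9 to -9.37), beside 35.7%. All 3 together lay at 55.2% of domain summits, with a difference of -20.8 points (-26.8 to -14.8) from the shorter peaks. The joint share over all A549 pol II peaks is not given here. Each single mark was more frequent at domain summits than over all A549 pol II peaks. Among peaks that covered a transcript start in both sets, H3K4me3 was at 75.3% and 91.9%, beside 90.3% of all A549 pol II peaks over a start. The distance from summit to start was not matched in this comparison. Of these domains, 63 were over the canonical end without its start and 66 inside the canonical transcript, where the start covered can lie far from the summit. The marks of B2B were lower at the summits of long domains too. B2B H3K4me3 lay at 53.0% and 68.8%, a difference of -15.8 points (-20.8 to -10.9), beside 30.8%. B2B H3K27ac lay at 57.7% and 75.3%, a difference of -17.6 points (-23.6 to -11.7), beside 34.8%, and B2B Med1 at 62.3% and 74.5%, a difference of -12.2 points (-18.2 to -6.44), beside 32.7%. The long A549 domains thus had these marks of either line at their summit less often than A549 pol II peaks of 2000 to under 4000 bp.

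**Figure D4:**
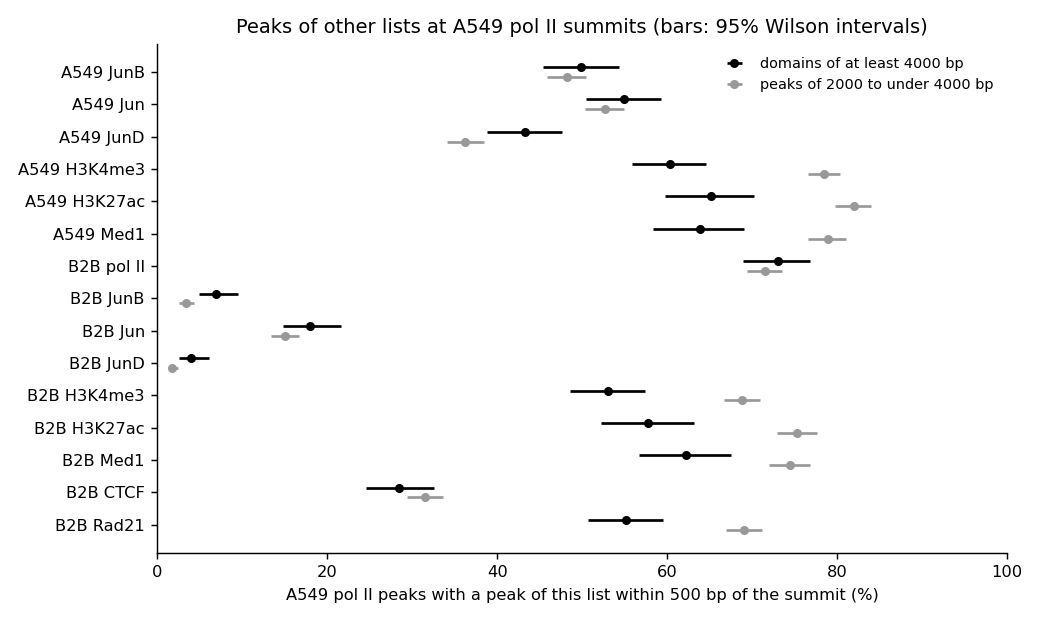
Percent of A549 pol II peaks with a peak of each list (rows) within 500 bp of the pol II summit. Black points are the long domains (479, or 310 for H3K27ac and Med1), grey points the peaks of 2000 to under 4000 bp (1807, or 1265), and bars 95% Wilson intervals for counting error. JunB and Jun lie together in both sets, while H3K4me3, H3K27ac, Med1 and Rad21 are lower in the long domains.

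Proteins of chromatin loops are given for B2B. Rad21, a cohesin subunit, lay at 55.1% of domain summits, beside 31.9% of all A549 pol II peaks, and at 68.8% of domains over a start, beside 74.5%. CTCF, the insulator protein, lay at 28.4%, beside 23.5%.

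In the plot of lists at pol II summits, the black and grey bars overlap for JunB, Jun, B2B pol II and CTCF and stand apart for the active marks of both lines.

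B2B had 596 Jun-family peaks in the domains, against 1867 in A549. A peak of any of the 3 proteins lay within 500 bp of the summit in 86 of 479 domains (18.0%) and 271 of 1807 shorter peaks, a difference of 2.96 points (-0.66 to 6.97), beside 16.9% of all A549 pol II peaks. Over whole domains it was 187 of 479 (39.0%; 34.8 to 43.5), beside 16.4%. By protein, B2B JunB lay at 6.89% of domain summits and 3.32% of shorter ones, a difference of 3.57 points (1.42 to 6.30), beside 5.59%. B2B Jun lay at 86 domain summits, the same ones as for the 3 together, beside 16.0%, and B2B JunD at 3.97% and 1.72%, beside 5.00%. Over a start in both sets, B2B JunD lay at 1.36% and 0.784%. In 127 of these 187 domains Jun was the only one of the 3 in B2B, whose Jun list was the longest. Of the A549 Jun peaks with a summit in a domain, 302 of 747 (40.4%; 36.97 to 43.99) overlapped a B2B Jun peak, against 47.8% of all A549 Jun peaks, and for JunB it was 64 of 601 (10.6%; 8.43 to 13.4) against 18.7%. When the JunB lists were cut to equal length, 20.9% of domain summits kept an A549 JunB peak.

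The domains with the most Jun-family peaks and a host gene were those of NEAT1 over its start (20 peaks in A549 and 9 in B2B), TXNRD1 (19 and 1), ANXA2 (19 and 9), KLF6, a zinc finger factor of the immediate early list (19 and 9), and MYADM (18 and 0). The ANXA2 domain was 84.1% covered by pol II in B2B and the KLF6 domain 81.8%. Among the widest with no Jun-family peak in A549 were those over the ends of SLC7A5 and TNS4, over HNRNPH1, which encodes an RNA-binding protein (13.5 kb), and over AKR1C2 (11995 bp). The HNRNPH1 domain was 68.4% covered by pol II in B2B. HNRNPA2B1, another RNA-binding protein gene, had 1 Jun peak in A549, and its 15.9 kb domain over the end was 84.5% covered in B2B.

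Regions with no gene stood apart. The 2 domains with the most Jun-family peaks of all had no gene, at chr1:143211381-143226384 with 38 in A549 and 43 in B2B, and at chr1:143235490-143242090 with 21 and 16. Of the 17 domains without a gene, 8 lay in the stretch of chromosome 1 around the centromere that also holds these, and 12 had peaks of all 3 Jun proteins of A549 and of B2B pol II. They held 220 of the 1867 Jun-family peaks in domains. Without the 17, JunB, Jun and JunD were at 48.9%, 54.1% and 42.0% of summits and B2B pol II at 72.9%.

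The AP-1 motif, TGACTCA or TGAGTCA on either strand, lay within 50 bp of 163 of 747 Jun summits in domains (21.8%; 19.01 to 24.9). Windows of the same length 2 kb to each side held it in 1.34%. Jun summits in pol II peaks of 2000 to under 4000 bp held it in 18.9%, a difference of 2.94 points (-0.52 to 6.56), and all A549 Jun summits in 42.0%. Within 1 kb of a start the shares were 20.9% in domains and 15.2% in the shorter peaks, a difference of 5.71 points (1.62 to 10.1). Further from a start they were 23.2% and 32.2%, a difference of -9.09 points (-15.9 to -2.11), and 47.5% over all Jun summits there. When peaks without a gene were left out of both sets, the shares were 24.6% and 18.7%, and the difference was 5.85 points (2.10 to 9.77). The longer form TGACTCAGC or its reverse complement, which overlaps the AP-1 motif, was at 3.61% of Jun summits in domains and 3.57% of all. A match describes the letters in the window and says nothing of which protein was bound.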

How the data were processed

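Peak lists of pol II, Med1, H3K4me3, H3K27ac, JunB, Jun and JunD from A549 and B2B, and of CTCF and Rad21 from B2B, were used (36 samples, 2 replicates per group, pooled by the authors before calling). Per the methods and the submitters' processing notes, reads were aligned to hg38 with Bowtie2 2.4.4, duplicates were removed with the authors' own code, replicates merged and scaled with SAMtools 1.13, and peaks called with MACS2 2.2.7.1. The caller's options and control were not given in the sources used here. The authors deposited for each peak its positions, a score (10 times −log10 q, rounded down), the fold enrichment of pileup over local background, and −log10 of the p-value and of the q-value, with 2.01 as the smallest −log10 q among A549 pol II peaks. The files give no read totals, so the depth is unknown, and no fold enrichment was compared between the lines.

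Members, gene lists and comparisons were chosen with earlier results of these data known. Genes were taken from GENCODE release 44, and the host was the gene with the largest overlap in bp. The choice to describe position by the host's canonical transcript came after the data had been seen. Overlap needed 1 bp. Genes were named by rule: the 10 widest domains, the 5 highest by fold enrichment, the 5 widest with no B2B pol II, over the end and not the start, and without a Jun-family peak, the 5 with the most Jun-family peaks, the 5 hosts with the most bases, genes of lists of at most 15, and 3 to each side of the threshold. The NRF2 targets, chaperones, ribosomal protein genes and long B2B peaks given as examples were chosen after their values were seen. So were the domains named by their B2B state at the start and downstream of it, and the domains with a host and most Jun-family peaks. 1 domain that the rule names is not reported here.

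Shares have Wilson and differences Newcombe 95% intervals, which cover counting error only and treat the 2 sets as independent. There is no p-value, since each list is 1 pool. Pileup and background were solved from fold enrichment and p-value by the Poisson tail. Python 3.11.15, NumPy 2.4.6 and Matplotlib 3.10.9 were used, and interval functions were tested on simulated data against bedtools 2.31.1. Alternatives were other widths, joined peaks, other windows, stricter lists, lists of equal length and fewer chromosomes. The A549 pol II list on and past chromosome 20, and the A549 H3K27ac and Med1 lists past chromosome 12, were not analysed here.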

Additional observations from a re-analysis of the deposited data

Results flagged for a closer look

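In B2B, the insulator protein CTCF and the cohesin subunit Rad21 were profiled, and no comparison of the lines uses them, since the A549 lists were not analysed here. CTCF of B2B lay within 500 bp of the A549 pol II summit in 28.4% of the long domains (24.5 to 32.6), beside 23.5% of all A549 pol II peaks, and the difference from peaks of 2000 to under 4000 bp was -3.10 points (-7.52 to 1.597). Rad21 of B2B lay there in 55.1% of the domains (50.6 to 59.5), beside 31.9% of all A549 pol II peaks. Its difference from the shorter peaks was -13.9 points (-18.9 to -9.05), and among peaks over a transcript start in both sets it was -15.3 points (-20.5 to -10.3).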

How the results depend on the processing

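No paired analysis was possible because each list was called on replicates pooled by the authors, and no test was made between samples. For the same reason no replicate could be left out. The number of long domains was 479, and was 890 at a width of at least 3000 bp and 1086 after joining peaks within 500 bp. The difference from shorter peaks in covering a transcript start (-0.607 points) was -4.39 points at 3000 bp and 3.60 points after joining, a change of sign. For JunB, the share at summits was 58.5% over whole domains, 44.1% in a 200 bp window, 20.9% with lists of equal length and 56.9% with both sets over a start, and the difference rose to 3.79 points after joining and 6.60 points with lists of equal length, both with intervals above 0. For Jun the share was 64.3% over whole domains, 49.1% in a 200 bp window and 63.7% over a start. For JunD it was 36.5% at −log10 q of at least 5, 48.9% over whole domains, 37.8% in a 200 bp window, 37.3% after joining, 38.8% with lists of equal length and 49.9% over a start, and the difference of 2.65 points at 3000 bp no longer excluded 0. For B2B pol II the share was 77.9% over whole domains, 64.3% after joining, 79.7% over a start and 25.3% by at least 50% coverage, where the difference changed sign to -8.66 points. Over whole domains the B2B Jun-family share was 39.0% and its difference 15.02 points. With peaks that lack a gene left out of both sets, the motif difference was 5.85 points, with an interval above 0. The causes were not tested. Leaving out peaks without a gene and limiting both sets to starts were alternatives chosen after seeing the data. Of 142 alternatives in all, 80 for the main values above and 29 for other values kept their direction and stayed within the limits of the value as reported. Depth is unknown, so a missing peak is not an absence of binding.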
